A study of Xenopus laevis with 46 samples.

Results

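The cyclins A, B, D and E, the cyclin-dependent kinases Cdk1 to Cdk8 and the Cdc25 phosphatases include the core of the cell cycle engine. They also include kinases with other roles, such as Cdk8 of the Mediator complex. Nascent transcripts of these genes were followed through the blastula stages of the frog Xenopus laevis. The genes were chosen by name, which gave 37 genes of 49233 distinct gene names in the table. Xenopus laevis is an allotetraploid, and the suffixes .L and .S name the copies of a gene on its long and short subgenomes. Both copies were listed for 16 pairs of genes, and 5 genes (ccnb5.L, cdk4.S, cdk5.L, cdk7.L and cdk8.S) had a single copy in the table. By family there were 4 cyclin A, 9 cyclin B, 4 cyclin D, 4 cyclin E and 6 Cdc25 genes, and 10 Cdk genes.

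All embryos were wild type and were kept at 22 °C. Each had received 10 nl of 50 mM 5-ethynyl uridine (EU) at the 1-cell stage, about 0.5 mM in the embryo. EU is a uridine analog that enters RNA as it is made, so labelled RNA can be tagged with biotin and captured on streptavidin beads. From blastulae the region of the animal pole (AP) and that of the vegetal pole (VP) were dissected. Experiment 1 covered 5, 6, 7, 8 and 9 hours post-fertilization (hpf) with 3 libraries per region and time from 3 clutches, 30 libraries in all. Experiment 2 covered 6 to 9 hpf with 1 clutch and 2 technical replicates per region and time, 16 libraries in all. No uninjected or unlabelled control was used here, so RNA carried over from the maternal store cannot be told apart from RNA made at each time, for any gene described. The values come from whole regions, in which fewer cells of a type and less RNA per cell cannot be told apart either.

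A cyclin binds a Cdk and makes it active. Wee1 and Myt1 kinases place inhibitory phosphates on the Cdk, and Cdc25 phosphatases remove them. Early cleavages of the frog embryo are rapid, lack gap phases and run on maternal mRNA and protein. At the midblastula transition the cycles lengthen and the embryo's own genes are switched on.

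Values are the normalized counts in the authors' table: read counts divided by a size factor per library and rounded. Library totals were 1783721 to 3063366 in experiment 1 and 1901519 to 3273514 in experiment 2, and the 37 genes made up 0.33 to 0.669% and 0.158 to 0.609% of them. Sequencing depth in reads is unknown. One library of experiment 1, AP at 8 hpf replicate 2, had values in even steps of about 12, so 1 read there was worth about that much, and 6 libraries of experiment 2 had clear steps of 3.52 to 8.06. Replicate 2 of VP at 8 hpf stood apart, with 4137 genes above 0 (the experiment 1 maximum was 18199) and 15 of the 37 above 0. Both VP libraries of experiment 2 at 7 hpf stood apart in the same way, with 19 and 13 of the 37 above 0, where every other library had 23 to 36. Genes above 0 also varied among the other experiment 1 libraries. At 5 hpf they were 15727, 8706 and 8488 in AP and 13551, 17708 and 7707 in VP. At 9 hpf they were 17494, 15202 and 12957 in AP and 14824, 12481 and 9245 in VP. The part of low detection in values of 0 at 5 hpf was not tested. Region labels were checked with marker lists. Of 12 vegetal markers, 6 were higher in VP over all times, among them vegt.L, a vegetally localized T-box transcript (1208, 983 and 2087 in VP against 96, 81 and 0 in AP at 5 hpf), and of 8 animal markers 1, the epidermal keratin krt70.S, was lower. Since krt70.S was listed at 0 in every VP library of experiment 1, it entered the test only through AP libraries. Its call is therefore a description. The other 7 animal markers were not called over all times. At 9 hpf the 12 vegetal markers summed to 13979 to 34287 in VP and 1037 to 3403 in AP, where gata6.S and grip2.L were at 0, and sox17b.1.L was called higher at 9 against 5 hpf in AP as well as in VP (adjusted p = 0.0109 and 0.00837).

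The test took genes at 10 or more in 3 or more experiment 1 libraries, and all 37 entered it. Of these, 11 were above 0 in all 30 libraries of experiment 1: 6 cyclin B genes, ccna1.L, ccna1.S, ccne1.L, ccne1.S and cdc25a.L. Differences were tested with limma on log2(normalized count + 1) across 19896 genes in experiment 1, and a gene was called at a Benjamini-Hochberg adjusted p under 0.05. Fold changes are given on that scale with their standard error. For a typical gene that error rests mostly on the spread of genes with a similar mean, and less on its own libraries. The added 1 shrinks the change of genes with low values, while a library at or near 0 among higher ones can enlarge or shrink a fold. Where every library of the earlier group was listed at 0, values are given and no fold. Experiment 2 had 1 clutch and was not tested.

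Genes called in any comparison over time were all higher at the later time, and belonged to cdc25b, ccne2 and ccnd1. When 8 and 9 hpf were compared with 5 and 6 hpf in AP, 3 of the 37 genes were called higher (cdc25b.L, cdc25b.S and ccne2.L) and none lower; over all genes tested, 2.78% were called higher and 0.0201% lower. The rise of cdc25b.L in AP was known when the set was chosen, so nothing is read from the counts in AP against those shares. At 9 against 5 hpf in AP, cdc25b.L, cdc25b.S and ccnd1.L were called higher, 3 of 37, against 1.72% of all genes, and none lower, against 0.00503%. Of these, ccnd1.L passed the filter on low values only through its 9 hpf libraries, so its call is a description. In VP, cdc25b.L was the 1 gene of 37 called, higher, both at 9 against 5 hpf (1.22% of all genes higher, 0.0302% lower) and at 8 and 9 against 5 and 6 hpf (1.34% higher, 0.0402% lower). The median log2 fold change of the 37 genes was 0.29 at 9 against 5 hpf in AP, beside 0.41 over all genes, and 0.17 in VP, beside -0.24 over all genes. No gene of the 37 was called at 6, 7 or 8 hpf against 5 hpf in either region by limma. Over all genes those comparisons gave in AP 0% at 6 hpf, 0.0101% higher at 7 hpf and 0.0653% higher at 8 hpf, with 0% lower at each time. In VP they gave 0% higher at each time, and 0.0101% lower at 6 hpf, 0.00503% lower at 7 hpf and 0.00503% lower at 8 hpf. At an unadjusted p under 0.05, the 37 genes gave 0, 1 and 3 in AP (0, 2.7 and 8.11%, against 3.45, 3.88 and 6.75% of all genes). In VP they gave 1, 0 and 3 (2.7, 0 and 8.11%, against 4.93, 2.43 and 6.36% of all genes), and at 8 hpf in VP the 3 were lower with all libraries. Without the VP library at 8 hpf that stood apart, 0 were lower and 3 higher (ccnb5.L and both cdc25b copies). In that setting 3.91% of all genes passed the unadjusted threshold, in either direction. For ccnb5.L the remaining VP libraries at 8 hpf were at 431 and 701, against 580, 489 and 2 at 5 hpf, which overlapped.

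**Figure D1:**
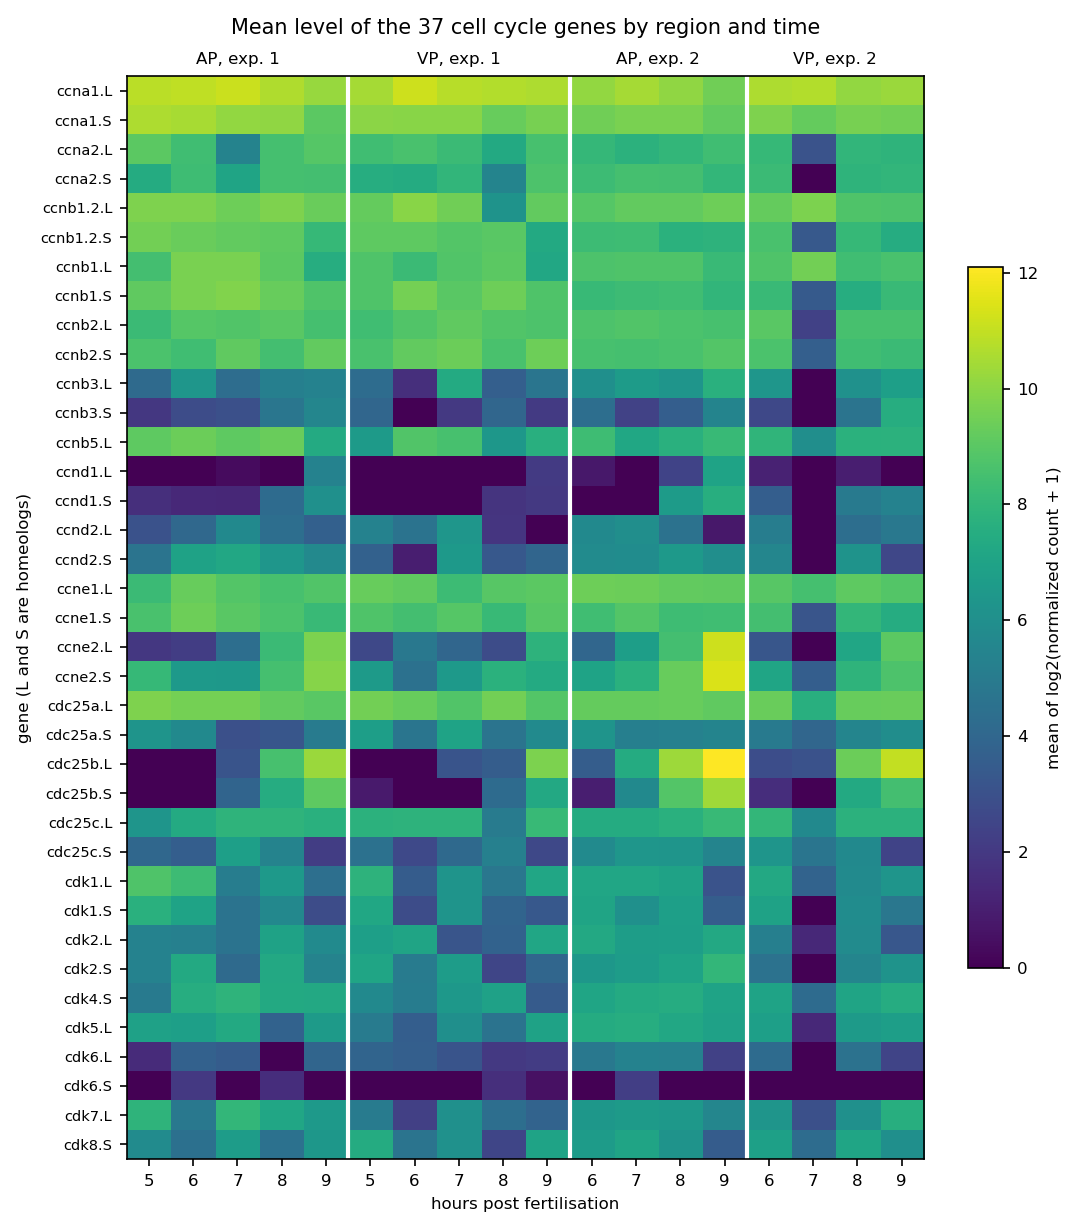
Mean normalized count of the 37 genes, as mean log2(normalized count + 1) in colour, for each region and time (hpf) in experiment 1 (mean of 3 libraries) and experiment 2 (mean of 2 technical replicates). Both cdc25b copies, ccne2.L and both ccnd1 copies brighten towards 9 hpf in AP, while ccna1 and most ccnb genes are bright throughout.

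**Figure D2:**
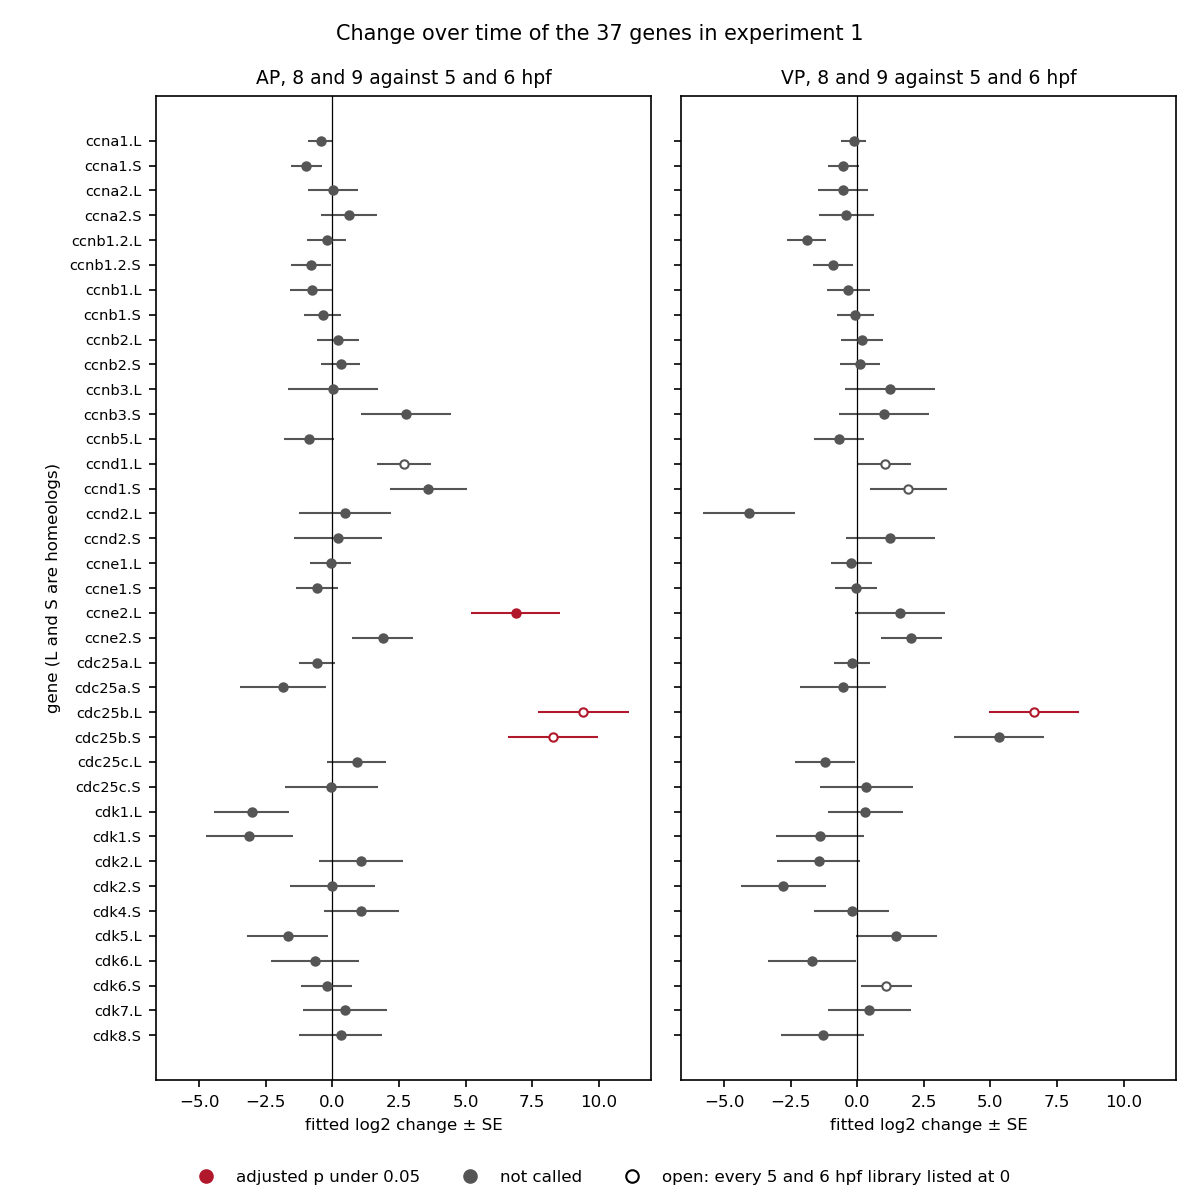
Fitted log2 change of each gene (8 and 9 hpf against 5 and 6 hpf) with its standard error, for AP and VP, in experiment 1. Red marks an adjusted p under 0.05, and open points mark genes listed at 0 in every 5 and 6 hpf library, whose fitted value is no fold; 3 genes are red in AP and 1 in VP.

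Cdc25b was the phosphatase whose transcripts appeared during these hours. Of its copies, cdc25b.L was listed at 0 in all 6 AP libraries at 5 and 6 hpf, then at 8, 0 and 78 at 7 hpf, at 65, 2147 and 397 at 8 hpf, and at 250, 4143 and 1745 at 9 hpf. Its VP values were 0 in all 6 libraries at 5 and 6 hpf, 0, 19 and 34 at 7 hpf, 156, 0 and 10 at 8 hpf, then 443, 1033 and 1227 at 9 hpf. Every 9 hpf library in both regions lay above every 5, 6 and 7 hpf library of its region, and the 8 hpf libraries spread widely. The rise in AP was known when these genes were chosen, so its p is a description (adjusted p = 6.06e-05 for 8 and 9 against 5 and 6 hpf, limma). The rise in VP was called at 9 against 5 hpf (adjusted p = 0.0119) and at 8 and 9 against 5 and 6 hpf (adjusted p = 0.0144). In the same VP libraries 3 of the 8 animal markers (foxi4.2.L, foxi4.2.S and grhl3.L) were called higher at 9 against 5 hpf. The summed count of the 8 markers was 0 in every VP library at 5 hpf and 2993 to 3910 at 9 hpf, against 3973 to 17794 in AP at 9 hpf. The markers cdh1.S and krt70.S were at 0 in all 3 VP libraries at 9 hpf. The part of these markers' cells in the cdc25b.L rise in VP was not tested. Experiment 2, from another clutch, gave 7 and 17 at 6 hpf, 164 and 180 at 7 hpf, 1584 and 1066 at 8 hpf, then 4761 and 4009 at 9 hpf in AP. Its VP values were 25 and 1, 66 and 0, 725 and 612, and 2170 and 1876 at the same times. In each region of that clutch the 8 and 9 hpf values exceeded all earlier ones.

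The short-subgenome copy, cdc25b.S, ran alongside. It was listed at 0 in all 6 AP libraries at 5 and 6 hpf, at 18, 0 and 172 at 7 hpf, 73, 660 and 119 at 8 hpf, then 194, 1121 and 710 at 9 hpf (adjusted p = 0.000492 for 8 and 9 against 5 and 6 hpf, limma). VP libraries held 0, 5 and 0 at 5 hpf, 0 throughout 6 and 7 hpf, 133, 0 and 46 at 8 hpf, then 268, 149 and 94 at 9 hpf. The 9 hpf VP libraries all lay above the 5 hpf ones, but the gene was not called there, with a log2 fold change of 6.43 ± 2.37 at 9 against 5 hpf (adjusted p = 0.21) and 5.32 ± 1.68 at 8 and 9 against 5 and 6 hpf (adjusted p = 0.087). Without replicate 2 of VP at 8 hpf the latter became 6.37 ± 1.79 (adjusted p = 0.0284), a call. In experiment 2, cdc25b.S went from 3 and 0 at 6 hpf to 1372 and 1263 at 9 hpf in AP, and from 0 and 8 to 344 and 362 in VP. At 9 hpf the L copy made up 56.3, 78.7 and 71.1% of the cdc25b counts in AP and 62.3, 87.4 and 92.9% in VP, and 77.6 and 76.0% against 86.3 and 83.8% in experiment 2. These shares are not corrected for transcript length, and reads common to both copies could be split between them.

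The AP library with steps of about 12 held the highest cdc25b values at 8 hpf. Without it, the adjusted p for 8 and 9 against 5 and 6 hpf was 0.00132 for cdc25b.L and 0.0035 for cdc25b.S (limma). As the rise of cdc25b.L in AP was known beforehand, its p remains a description in this setting too. The cdc25b.S call was lost when replicate 2 was left out at all times (adjusted p = 0.0723). In VP the cdc25b.L call for 8 and 9 against 5 and 6 hpf was lost without replicate 1 (adjusted p = 0.43), without replicate 3 (0.136) and when the fit held only the groups compared (0.0615). With 1 replicate number left out throughout, no gene of the 37 was called at 9 against 5 hpf in either region.

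The other Cdc25 genes did not pass the test in any comparison. Transcripts of cdc25a.L, which acts in the cleavage cycles of the frog, lay between 255 and 1467 in experiment 1, with a median of 633.5. In AP it was at 761, 972 and 881 at 5 hpf against 656, 620 and 334 at 9 hpf, groups that did not overlap (log2 fold change -0.75 ± 0.96, adjusted p = 0.908). In VP the groups overlapped, with 527, 509 and 1467 at 5 hpf, then 769, 504 and 255 at 9 hpf. Experiment 2 gave 605 and 616 at 6 hpf against 552 and 581 at 9 hpf in AP. Transcripts of cdc25c.L, a copy of the phosphatase known for activating Cdk1 at entry into mitosis, stood at 276, 4 and 361 at 5 hpf, then 239, 200 and 177 at 9 hpf in AP, and 134, 143 and 543 against 354, 219 and 287 in VP. Its groups overlapped in both regions. The remaining copies were scattered: cdc25a.S was above 0 in 27 of 30 libraries and lay between 0 and 300, and cdc25c.S was above 0 in 20 of 30 and reached 751.

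These values set the make-up of the Cdc25 counts. The cdc25b copies were 0% of the summed Cdc25 counts in every AP library at 5 and 6 hpf. At 8 hpf they were 18.2, 75.9 and 28.9%, and at 9 hpf 29.9, 86.4 and 81.4%. The VP libraries at 9 hpf had 35.0, 60.4 and 69.4%, against 0, 0.66 and 0% at 5 hpf. In experiment 2 the share went from 1.11 and 1.78% at 6 hpf to 87.4 and 84.0% at 9 hpf in AP, and from 2.5 and 0.84% to 75.9 and 68.2% in VP. Since counts are not divided by transcript length, the shares are compared between libraries only.

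**Figure D3:**
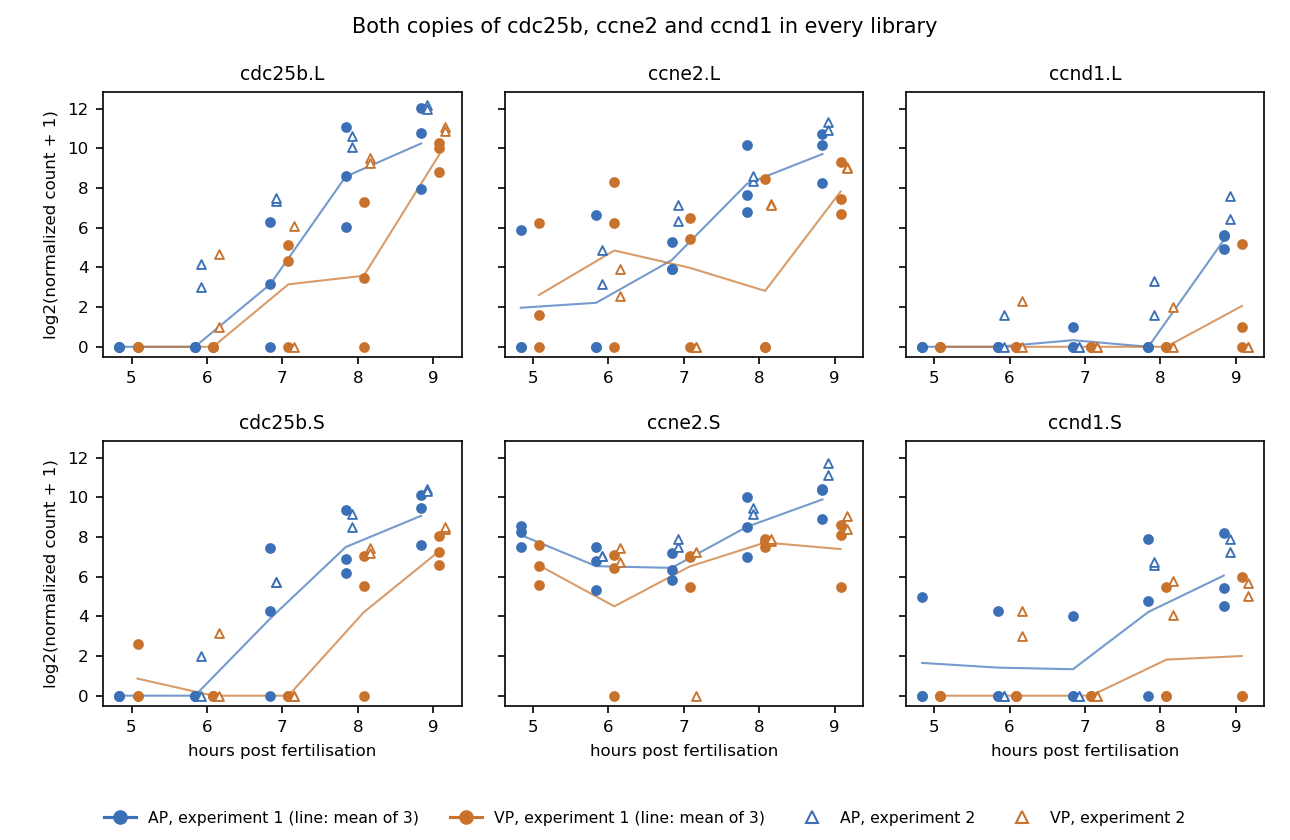
log2(normalized count + 1) of both copies of cdc25b, ccne2 and ccnd1 in every library by hpf, AP in blue and VP in orange. Filled circles are experiment 1 with a line through the mean of 3 libraries, and open triangles are experiment 2; cdc25b.L leaves 0 at 7 hpf and all its 9 hpf points lie above all of those at 5 to 7 hpf of the same region in experiment 1.

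**Figure D4:**
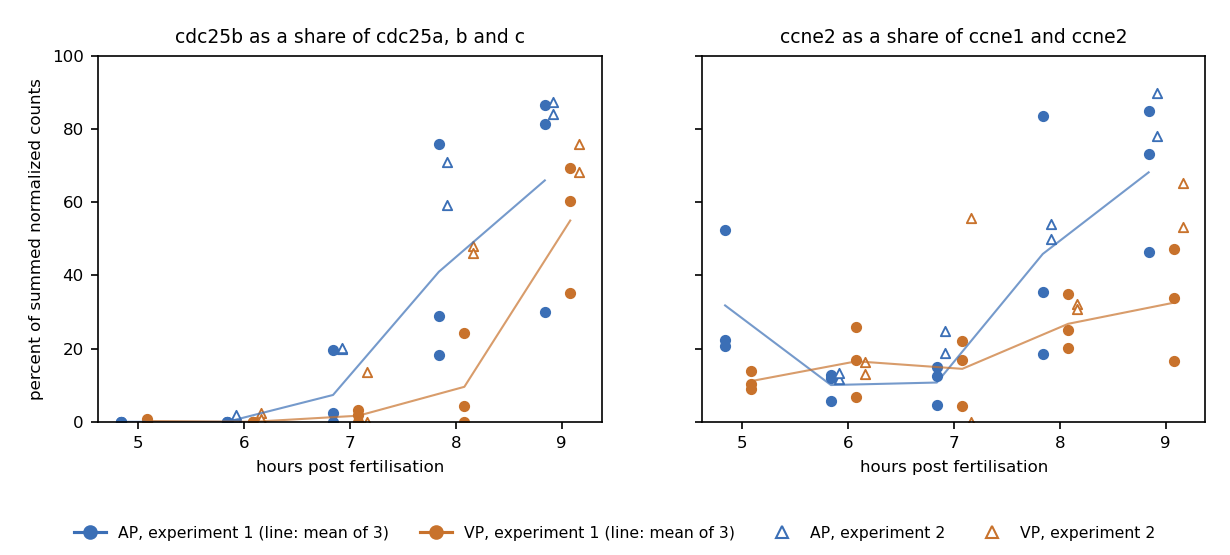
Counts of cdc25b as a percent of summed cdc25a, cdc25b and cdc25c counts, and of ccne2 as a percent of ccne1 and ccne2, in every library by hpf. AP libraries at 9 hpf reach 86.4% for cdc25b and 84.8% for ccne2 in experiment 1, and the VP libraries at 9 hpf reach 69.4% and 47.1%.

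Cyclin E binds Cdk2 and drives entry into S phase. A cyclin E2 copy was called higher in AP at the later times, and cyclin E1 did not pass the test. Transcripts of ccne2.L in AP were at 59, 0 and 0 at 5 hpf, 100, 0 and 0 at 6 hpf, 38, 14 and 14 at 7 hpf, 111, 1155 and 204 at 8 hpf, then 305, 1698 and 1153 at 9 hpf. The 8 and 9 hpf libraries all lay above those at 5 and 6 hpf, and the rise was called (log2 fold change 6.88 ± 1.69, adjusted p = 0.00586). It held without AP at 8 hpf replicate 2 (6.39 ± 1.82, adjusted p = 0.0454), and was lost without replicate 2 at all times (5.09, adjusted p = 0.534) and without replicate 3 (5.85, adjusted p = 0.144). At 9 against 5 hpf alone it missed the threshold (7.75 ± 2.39, adjusted p = 0.0636), and passed it without VP at 8 hpf replicate 2 (adjusted p = 0.0469) and in 3 other alternatives of 16. The VP values were scattered, at 75, 2 and 0 at 5 hpf, 350, 0 and 0 at 8 hpf, then 628, 177 and 103 at 9 hpf, and were not called (1.59 ± 1.69 for 8 and 9 against 5 and 6 hpf, adjusted p = 0.841). In experiment 2, ccne2.L stood at 8 and 28 at 6 hpf, then 2621 and 1967 at 9 hpf in AP, and at 14 and 5 against 530 and 524 in VP.

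Its partner copy ccne2.S was above 0 in every AP library. These held 180, 305 and 373 at 5 hpf, 39, 177 and 110 at 6 hpf, then 482, 1307 and 1369 at 9 hpf. All 9 hpf libraries exceeded the 5 hpf ones, but the difference was not called (1.80 ± 1.62, adjusted p = 0.849). VP libraries held 47, 93 and 191 at 5 hpf, then 272, 44 and 386 at 9 hpf, which overlapped. Experiment 2 went from 129 and 129 at 6 hpf to 3402 and 2225 at 9 hpf in AP, and from 106 and 174 to 529 and 336 in VP. Cyclin E1 values ranged over the 30 libraries, ccne1.L at 148 to 1341 and ccne1.S at 113 to 1072. In AP, ccne1.L was at 371, 394 and 181 at 5 hpf against 524, 518 and 340 at 9 hpf. The ccne2 share of cyclin E counts in AP was 11.8, 12.7 and 5.6% at 6 hpf and 46.4, 73.2 and 84.8% at 9 hpf, although 1 library at 5 hpf had 52.2%. In VP it was 13.9, 10.4 and 8.94% at 5 hpf and 47.1, 16.7 and 33.8% at 9 hpf.

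D-type cyclins bind Cdk4 and Cdk6 and link growth signals to the G1 phase, which the cleavage cycles lack. The cyclin D1 copy ccnd1.L was at or near 0 until 9 hpf: it was listed at 0 in every AP library of experiment 1 at 5, 6 and 8 hpf, stood at 1, 0 and 0 at 7 hpf, and reached 29, 49 and 47 at 9 hpf. That rise was called (adjusted p = 0.0207 at 9 against 5 hpf, limma). The call was lost when replicate 1 (adjusted p = 0.062), replicate 2 (0.257) or replicate 3 (0.315) was left out. It was also lost when the fit held only the groups compared (adjusted p = 0.346). Before 9 hpf every experiment 1 library held 0 or 1, so ccnd1.L entered the test only through its 9 hpf libraries. Its p is therefore a description. The alternative filter of at least 10 in at least 6 libraries left the gene out. In VP it was 0 in all libraries from 5 to 8 hpf, then 35, 1 and 0 at 9 hpf. Experiment 2 gave 191 and 87 in AP and 0 and 0 in VP at 9 hpf. The other copy, ccnd1.S, was at 30, 0 and 0 at 5 hpf, then 42, 298 and 22 at 9 hpf in AP, groups that overlapped (4.41 ± 2.05, adjusted p = 0.391). Experiment 2 showed it at 0 and 0 at 6 hpf, 94 and 106 at 8 hpf, then 240 and 152 at 9 hpf in AP. Cyclin D2 was not called: ccnd2.L reached 183 and was 13, 60 and 80 in VP at 5 hpf against 0, 0 and 0 at 9 hpf (-5.36 ± 2.45, adjusted p = 0.452), and ccnd2.S ranged from 0 to 402.

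Cyclins A and B, which bind Cdk1 and Cdk2 to drive S phase and mitosis, did not pass the test in any comparison. Cyclin A1 is the embryonic A-type cyclin of the frog. Its copy ccna1.L held 2241, 2024 and 1328 at 5 hpf, then 1877, 1036 and 860 at 9 hpf in AP, which overlapped, and 860 to 2785 over all 30 libraries. The other copy, ccna1.S, went from 1388, 2514 and 1098 at 5 hpf to 957, 461 and 346 at 9 hpf in AP without overlap (-1.55 ± 0.82, adjusted p = 0.531). In VP its groups overlapped, at 847, 487 and 2659 against 908, 911 and 576, and in experiment 2 the AP values were 747 and 675 at 6 hpf against 473 and 733 at 9 hpf. The cyclin A2 copy ccna2.L had 290, 681 and 738 at 5 hpf, then 438, 0 and 166 at 7 hpf in AP (-3.66 ± 1.32, adjusted p = 1, and -0.78 without replicate 2), and 419, 405 and 621 at 9 hpf.

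For ccnb1.2.L, a cyclin B1 gene, AP held 781, 1367 and 612 at 5 hpf against 772, 467 and 727 at 9 hpf, and VP 708, 458 and 654 against 598, 748 and 423, with overlap in both regions. Its VP libraries at 8 hpf were at 898, 0 and 437 and the AP libraries at 779, 1028 and 795 (VP minus AP -3.55 ± 1.04, adjusted p = 0.388). The value of 0 came from the library with 4137 genes above 0, and without it the difference was -0.46 ± 0.58 (adjusted p = 1). In that library ccnb1.S was at 2137, with 421 and 362 in its partners. Otherwise ccnb1.S ran from 239 to 1263. The values of ccnb1.2.S were 708, 847 and 675 at 5 hpf, then 434, 185 and 258 at 9 hpf in AP, without overlap, and 304 and 318 at 6 hpf against 245 and 200 at 9 hpf in experiment 2. The cyclin B3 copies ccnb3.L and ccnb3.S were above 0 in 23 and 16 of the 30 libraries.

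**Figure D5:**
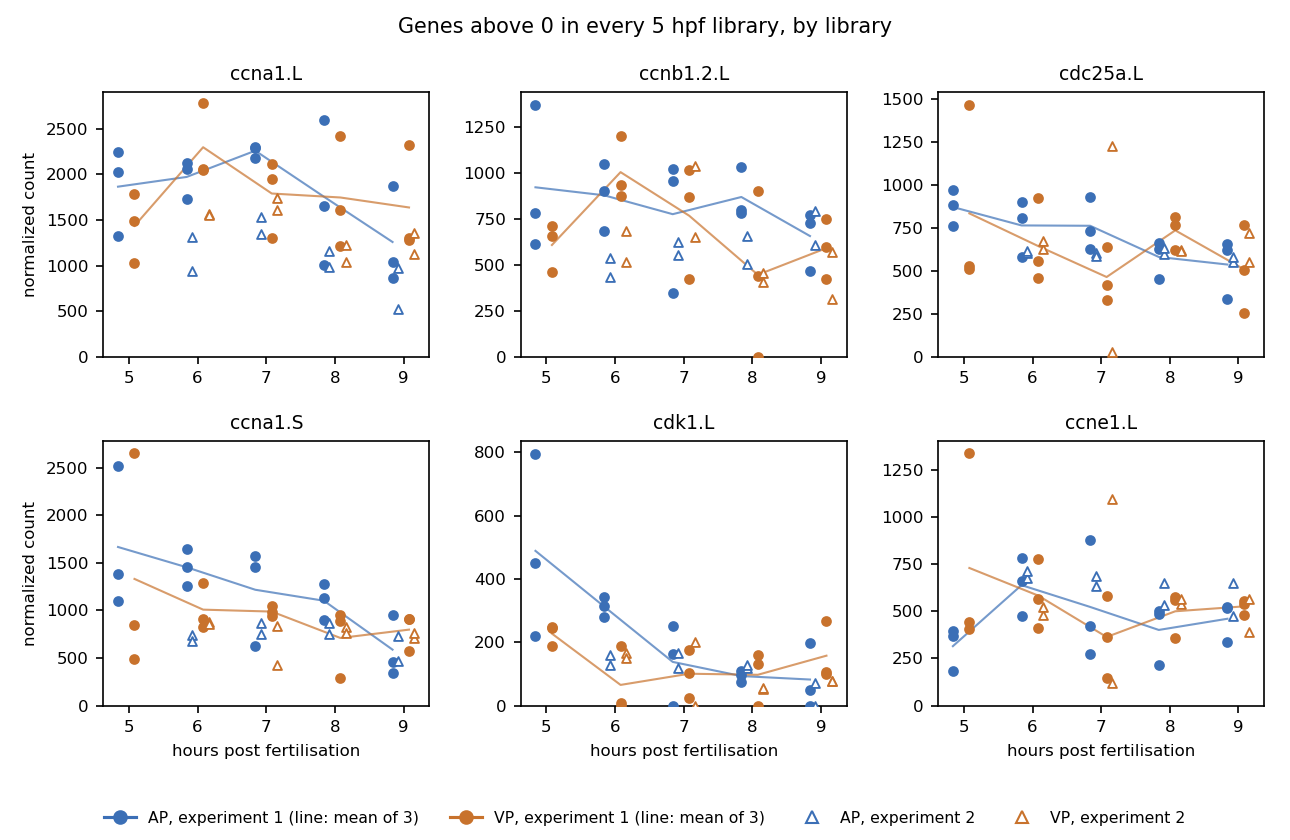
Normalized counts of 6 genes in every library by hpf, on a linear axis, AP in blue and VP in orange. Filled circles are experiment 1 with a line through the mean of 3 libraries and open triangles are experiment 2; ccna1.S, cdc25a.L and cdk1.L have all 3 AP circles at 9 hpf below all 3 at 5 hpf.

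Cdk1, the kinase of mitosis, had lower values at 9 than at 5 hpf in several groups, none of which was called. In AP, cdk1.L was at 221, 795 and 450 at 5 hpf, 279, 344 and 316 at 6 hpf, 108, 96 and 76 at 8 hpf, then 48, 199 and 0 at 9 hpf. All 3 libraries at 9 hpf lay below those at 5 hpf (-4.33 ± 2.00, adjusted p = 0.388). In VP the groups overlapped, with 248, 245 and 189 at 5 hpf against 99, 106 and 268 at 9 hpf. The short copy, cdk1.S, was at 157, 103 and 524 at 5 hpf, then 14, 21 and 0 at 9 hpf in AP (-4.89 ± 2.32, adjusted p = 0.413), and at 153, 77 and 271 against 36, 0 and 27 in VP (-3.87 ± 2.32, adjusted p = 0.696). Neither region had overlap for cdk1.S. Experiment 2 had cdk1.L at 160 and 128 at 6 hpf against 0 and 71 at 9 hpf in AP, and at 165 and 151 against 78 and 78 in VP. Its cdk1.S values were 159 and 111 against 2 and 47 in AP, and 112 and 141 against 50 and 14 in VP. Over all genes, 4.23% in AP and 4.77% in VP had every 9 hpf library below every 5 hpf library in experiment 1, and 30.3% and 19.7% had both 9 hpf replicates below both 6 hpf replicates in experiment 2.

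Among the 37 genes, 6 (16.2%, against 4.23% of all genes) had every 9 hpf library below every 5 hpf library in AP: ccna1.S, ccnb1.2.S, cdc25a.L, cdk1.L, cdk1.S and cdk7.L. As many, 6 (16.2%, against 8.5% of all genes), had every 9 hpf library above: ccnd1.L, both ccne2 copies, both cdc25b copies and cdk8.S. The rise of cdc25b.L in AP was known when the set was chosen, and ccnd1.L entered the test only through its 9 hpf libraries. Nothing is therefore read from counts of genes above in AP, at 8 or 9 hpf, against the shares of all genes. In VP the counts were 3 below (8.11%: ccnb1.L, ccnd2.L and cdk1.S) and 5 above (against 5.44% of all genes: ccna2.S, ccnb2.S, ccne2.L and both cdc25b copies). At 8 against 5 hpf in AP, 3 genes lay wholly above (8.11%, against 5.65% of all genes: ccne2.L and both cdc25b copies) and 6 wholly below (16.2%, against 2.96% of all genes). Those 6 were cdc25a.L, cdc25a.S, cdk1.L, cdk1.S, cdk5.L and cdk7.L, so both cdk1 copies, cdc25a.L and cdk7.L lay below their 5 hpf values at 8 as well as at 9 hpf. Both comparisons share the same AP libraries at 5 hpf, so they are not independent, and none of these genes was called in them. A gene at 0 in any 5 hpf library cannot lie wholly below. The AP libraries at 5 hpf had 33, 25 and 26 of the 37 genes above 0. Of the 49233 gene names they had 15727, 8706 and 8488 above 0. The shares of genes below are therefore not like for like, and nothing is read from their difference. In VP at 8 hpf, with the library that stood apart included, 0 lay wholly above (against 1.65% of all genes) and 4 wholly below (10.8%, against 4.25%: cdk1.L, cdk1.S, cdk2.L and cdk8.S). Experiment 2 in AP had 12 genes above at 9 against 6 hpf (32.4%, against 19.3% of all genes) and 13 below (35.1%, against 30.3%). All 6 genes of the cdc25b, ccne2 and ccnd1 pairs were among the 12. Experiment 2 in VP had 10 genes above (27%, against 22.4% of all genes) and 11 below (29.7%, against 19.7%).

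Of the other Cdk genes none was called. Cdk2, partner of cyclins E and A, was above 0 in 25 of 30 libraries for each copy, and reached 410 for cdk2.L and 480 for cdk2.S. For cdk2.L the AP libraries held 174, 0 and 410 at 5 hpf, then 87, 22 and 84 at 9 hpf, with overlap. The cdk4.S gene, for a partner of D-type cyclins, was at 147, 56 and 440 in AP and 115, 11 and 0 in VP at 9 hpf (VP minus AP -3.79 ± 2.00, adjusted p = 0.726, and -1.30 without replicate 3). Values of cdk5.L ranged from 0 to 238, cdk6.L was above 0 in 15 of 30 libraries, and cdk6.S was above 0 in 4 of 30 and reached 66. The cdk7.L gene, for the catalytic subunit of the kinase that activates other Cdks, was above 0 in 14 of 15 AP libraries (median 127) and 10 of 15 VP libraries (median 69). Its mean difference over 5 to 9 hpf, -2.55 ± 0.99 for VP minus AP, was not called (adjusted p = 0.324, and -1.35 without replicate 3). The values of cdk8.S, a kinase of the Mediator complex, lay between 0 and 445.

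Comparison of the regions gave no call among the 37 genes at any time by limma. Over all genes, 0.0955% were called higher and 0% lower in VP at 5 hpf, 0.0151% and 0.0101% at 6 hpf, 0.0101% and 0% at 7 hpf, 0% and 0% at 8 hpf, then 0.246% and 0.131% at 9 hpf. At an unadjusted p under 0.05, the 37 genes gave 0 at 5 hpf, 2 lower at 6 hpf, 1 higher at 7 hpf, 6 lower at 8 hpf and 2 lower at 9 hpf in VP. The shares of all genes at that threshold, in either direction, were 4.29, 6.36, 3.48, 6.78 and 7.19% in the same order, and 6 of 37 is 16.2%. The VP group at 8 hpf contains the library with 15 of the 37 genes above 0. Without it 0 of the 37 passed that unadjusted threshold, against 3.48% of all genes, while the median of all genes moved from -0.91 to 0. Over the mean of 5 to 9 hpf 0 were called (0.638% of all genes were higher and 0.0704% lower), with 4 lower at an unadjusted p under 0.05 (10.8%, against 10.1% of all genes in either direction). At 9 hpf, cdc25b.L differed by -0.56 ± 2.41 (adjusted p = 1), and ccnd1.L by -3.32 ± 1.42 (adjusted p = 0.518). The VP libraries of ccne2.S, at 272, 44 and 386, all lay below the AP libraries at 482, 1307 and 1369 (-2.50 ± 1.62, adjusted p = 0.813). That was the 1 gene of 37 (2.7%) without overlap in this direction, against 5.7% of all genes, and 0 lay wholly above, against 3.56%. At 5 hpf, ccne1.L (405, 444 and 1341 in VP, 371, 394 and 181 in AP) and cdk8.S (133, 87 and 445 in VP, 60, 65 and 45 in AP) lay wholly above, 2 genes (5.41%, against 3.16% of all genes), and 0 lay wholly below, against 3.15%. The change from 5 to 9 hpf did not pass a test of difference between regions for any of the 37 genes (0 called, against 0% of all genes, and 0 at an unadjusted p under 0.05, against 5.24%). For cdc25b.L, listed at 0 in every 5 hpf library of both regions, the difference of the changes (-0.56 ± 3.41) is the 9 hpf difference with a larger error. It is no separate result. In experiment 2 at 9 hpf, 15 of 37 genes (40.5%, against 15.6% of all genes) had both VP replicates below both AP replicates, among them both copies of cdc25b, ccne2 and ccnd1, and 7 (18.9%, against 19% of all genes) had both above. These are technical replicates of 1 clutch, so that no spread between clutches stands behind them.

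The rest of the pathway was read from lists of 126 tested genes. These lists were chosen with earlier results of these data known, so nothing is read from their counts against the shares of all genes. Of 27 other cyclins, 2 were called higher in AP at 9 against 5 hpf, where 1.72% of all genes were. The cyclin G gene ccng1.L was listed at 0 in all AP libraries from 5 to 7 hpf, then at 79, 0 and 37 at 8 hpf, then 350, 1094 and 180 at 9 hpf (adjusted p = 0.0137). The cyclin J gene ccnj.S was at 281, 5 and 6 at 5 hpf, then 539, 948 and 1137 at 9 hpf in AP (5.20 ± 1.25, adjusted p = 0.0108, limma). Its AP libraries at 6 hpf already held 247, 190 and 717, and its VP libraries were at 642, 585 and 914 at 5 hpf. In experiment 2, ccnj.S went from 311 and 431 at 6 hpf to 833 and 704 at 9 hpf in AP. Both cyclin genes were also called at 8 and 9 against 5 and 6 hpf in AP of experiment 1 (adjusted p = 0.00602 and 0.0396, limma). That comparison gave 2.78% of all genes higher. For ccnj.S that second call was lost in 9 of 16 alternatives, among them those without the VP (adjusted p = 0.252) or the AP (0.143) library at 8 hpf replicate 2, and those without replicate 1 (0.0678), 2 (0.304) or 3 (0.161).

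Of 9 Cdk inhibitors, 1 was called: cdknx.L, which encodes a frog Cdk inhibitor (Xic1) of the Cip/Kip type, was at 1, 0 and 0 at 5 hpf in AP, 0, 31 and 0 at 6 hpf, 63, 610 and 79 at 8 hpf, then 115, 477 and 103 at 9 hpf (6.34 ± 1.69 for 8 and 9 against 5 and 6 hpf, adjusted p = 0.0137). That comparison gave 2.78% of all genes higher. The cdknx.L gene lost its call without AP at 8 hpf replicate 2 (5.82, adjusted p = 0.0619), and with any replicate number left out (adjusted p = 0.117 to 0.216). Experiment 2 had it at 25 and 17 at 6 hpf against 495 and 752 at 9 hpf in AP, and at 53 and 64 at 9 hpf in VP. Of 15 other Cdk genes, cdk9.L, the kinase of the elongation factor P-TEFb, was called higher in VP at 9 against 5 hpf, from 143, 131 and 0 to 1431, 655 and 1084 (5.24 ± 1.36, adjusted p = 0.0182). That comparison gave 1.22% of all genes higher. The AP libraries of cdk9.L held 155, 285 and 93 at 5 hpf, then 726, 3088 and 1903 at 9 hpf, without overlap, and were not called.

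Among 27 genes of the Rb and E2F group, e2f7.L, an atypical E2F that represses transcription, was called higher in both regions at 9 against 5 hpf. Those comparisons gave 1.72% of all genes higher in AP and 1.22% in VP. The e2f7.L gene went from 152, 0 and 109 to 1324, 2938 and 2558 in AP (6.39 ± 1.63, adjusted p = 0.0156) and from 49, 92 and 0 to 2829, 988 and 496 in VP (6.06 ± 1.63, adjusted p = 0.0271, and 0.534 without replicate 1). Over the mean of all times, e2f1.S, an activating E2F, was called higher in VP than in AP (3.23 ± 0.81, adjusted p = 0.0149, limma), as were 0.638% of all genes. At 5 hpf it stood at 301, 443 and 401 in VP and 132, 0 and 0 in AP. At 6 hpf it was closer, at 224, 367 and 601 in VP and 188, 211 and 93 in AP. Experiment 2 gave 317 and 276 in VP and 237 and 207 in AP at 6 hpf. The fitted value includes AP libraries listed at 0 at 5, 8 and 9 hpf. The calls of ccng1.L, e2f7.L and e2f1.S were each lost when 1 replicate number was left out, with adjusted p of 0.277 without replicate 2 for ccng1.L, 0.27 without replicate 2 for e2f7.L in AP and 0.41 without replicate 3 for e2f1.S. The ccnj.S gene at 9 against 5 hpf lost its call without replicate 3 (adjusted p = 0.254) and so did cdk9.L without replicate 3 (adjusted p = 0.641). None was called at 9 against 5 hpf in AP or VP among the 6 inhibitory kinases of Cdk1, 5 Cdk partners, 12 regulators of the anaphase-promoting complex, 6 SCF ubiquitin ligase subunits, 16 mitotic kinases and phosphatase regulators, and 3 checkpoint kinases. For those 6 lists the median log2 fold change in AP was -0.17, 0.68, -1.06, -0.48, -0.95 and -0.59 in that order, beside 0.41 over all genes. In VP it was 0.755, -1.671, -1.576, 0.137, -0.385 and 0.023, beside -0.239 over all genes. In those lists, 2 genes in AP, both mitotic kinases or phosphatase regulators, had an unadjusted p under 0.05, and 4 in VP. Over all genes that share was 10.3% in AP and 8.86% in VP.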

How the data were processed

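Nascent EU-labelled RNA from 46 libraries was quantified by the authors. Per the submitters' processing notes the tools were Salmon 0.12.0 and DESeq2, and the deposited table holds normalized counts rounded to whole numbers, used here as a score and not as raw counts. Neither genome build nor annotation is named: not given in the sources used here. Rows sharing a name were summed (50489 entries, 1256 of them summed away, 49233 names). Of the 37 genes, 35 were found by name in the RefSeq annotation of assembly v10.1. No 2 libraries held identical values.

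Since the values are not raw counts, a count test was not used. Log2(value + 1) of the 30 experiment 1 libraries was fitted with limma 3.58.1 in R 4.3.3 (trend and robust), with 10 region and time groups of 3 libraries, for 19896 genes at 10 or more in at least 3 libraries, with Benjamini-Hochberg adjusted p-values in each of 17 contrasts. The groups share 1 estimate of the spread per gene. It was moderated toward the trend over genes of similar mean, with a median of 331 degrees of freedom in total. For a typical gene most of these come from that trend. Its standard error and p therefore rest mainly on the trend, and less on its own libraries. An exact permutation test of 3 against 3 libraries cannot go below p = 0.1 and was not used. The scripts were tested on simulated data, with changes added only to genes of high mean and small spread. That test does not bear on genes with low or widely spread values. Experiment 2 was not tested. The genes named with values are the Cdc25 genes, every called gene, and in each other family those with the highest mean or the smallest p; others, cdk1.S among them, were chosen after their values were seen. Gene families and the pathway lists were chosen with earlier results of these data known. Alternatives were other added constants, filters, scalings, designs and left-out libraries.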

Additional observations from a re-analysis of the deposited data

How the results depend on the processing

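The counts of called genes among the 37 depended on which replicate numbers were fitted. Each of the 17 comparisons was repeated under 17 alternatives. At 9 against 5 hpf, leaving out a replicate number gave 0 called genes in AP (3 with all libraries) and 0 in VP (1 with all). For 8 and 9 against 5 and 6 hpf in AP (3 with all), leaving out a replicate number gave at lowest 1, without replicate 2, when cdc25b.L was called. The highest such count was 4, without replicate 1 (ccnd1.S in addition). In VP (1 with all) leaving out a replicate number gave 0, without replicate 1 or 3, to 1. Calls of cdc25b.L in AP are descriptions under every alternative, since its rise there was known when the set was chosen. Over all genes, the calls at 9 against 5 hpf in AP fell from 343 to 62, 23 and 10 without replicates 1, 2 and 3, and in VP from 249 to 0, 191 and 7. For 8 and 9 against 5 and 6 hpf they fell in AP from 557 to 329, 40 and 146, and in VP from 275 to 1, 270 and 122. Fitting only the groups compared gave 1 call at 9 hpf between regions (ccne2.S, lower in VP, against 0), 6 for 8 and 9 against 5 and 6 hpf in AP (ccna1.S and cdk1.L lower, ccne2 and cdc25b copies higher) and 0 in VP. Over all genes that fit gave 98, 518 and 130 calls in the same order, beside 75, 557 and 275 as reported. Leaving out AP at 8 hpf replicate 2 and adding experiment 2 as a clutch were chosen after seeing the data. The former left every count within 1.5 times. Adding experiment 2 gave 1 call between regions at 9 hpf (ccnd1.L, lower in VP), 1 at 8 against 5 hpf in AP (cdc25b.L), 5 for 8 and 9 against 5 and 6 hpf in AP and 2 in VP. Over all genes it gave 152, 43, 888 and 535 calls in the same order, beside 75, 13, 557 and 275 as reported. At 9 hpf in experiment 1, ccnd1.L held 29, 49 and 47 in AP and 35, 1 and 0 in VP. It entered the test through AP, so its call between regions is a description. An added constant of 10 gave 1 call at 8 against 5 hpf in AP, where calls over all genes went from 13 to 39. Without VP at 8 hpf replicate 2 there were 5 calls at 9 against 5 hpf in AP (ccna1.S, lower, and ccne2.L in addition) and 2 in VP for 8 and 9 against 5 and 6 hpf. No filter, library weights, and genes above 0 as a covariate also gave 2 there, the copies of cdc25b. Over all genes, leaving out that VP library gave 398 and 367 calls in these AP and VP comparisons, beside 343 and 275 as reported. No filter, library weights and the covariate gave 319, 325 and 437 over all genes in that VP comparison. The cause of these shifts was not tested. Direction reversed for ccne2.L in VP at 8 and 9 against 5 and 6 hpf (1.59 with all libraries, -0.49 to 2.78 with a replicate number left out, the lowest without replicate 1) and for ccne2.S in VP at 9 against 5 hpf (0.82 with all, -0.026 to 1.76, the lowest without replicate 1), neither of which was called.

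The labels do not tie replicate numbers to the 3 clutches, and the numbers were not taken as pairs, since not every pair correlated above 0.1: the correlation of residuals of same-numbered AP and VP libraries of a time was -0.024 to 0.103 (median 0.028, 15 pairs), and -0.113 to 0.078 for other numbers (median -0.013, 30 pairs). Over the remaining pairs it was -0.065 to 0.222 (median 0.027, 120 pairs) for the same number and -0.202 to 0.082 (median -0.013, 240 pairs) for others. As a hint from the data, 27 of 30 libraries correlated best with their own number. With a replicate block, 4 of the 37 genes were called at 9 against 5 hpf in AP (ccne2.L in addition, adjusted p = 0.0474), 1 in VP, 3 at 8 and 9 against 5 and 6 hpf in AP and 1 in VP. Over all genes the block gave 448 calls at 9 against 5 hpf in AP and 311 in VP. Low values rest on few reads where 1 read is worth about 12, and the depth of most libraries is unknown.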
